A study of Homo sapiens with 10 samples.

Results

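The spliceosome, SR and hnRNP proteins were described here across 10 long-read libraries of cells that carry an RNA editor. Members were every gene whose symbol began with HNRNP, SRSF, SF3A, SF3B, SNRP, SNRNP, PRPF or U2AF. They numbered 76 of the 10631 genes with an entry in any library. By subfamily there were 4 U2AF genes, 9 genes of SF3a and SF3b, 18 Sm and other snRNP proteins, 13 PRPF proteins, 11 SR proteins and 21 hnRNPs.

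Splicing removes introns in steps. U2AF and SF3b help the U2 particle settle near the end of the intron, the Sm proteins form the ring on which the small nuclear RNAs are held, and the PRPF proteins and SNRNP200 build and remodel the active centre. SR proteins bind exons and mostly promote their inclusion, while hnRNPs coat nascent RNA and often oppose it. Transcripts of many of these regulators are themselves spliced in alternative ways.

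HEK293T, a human embryonic kidney line, was induced with doxycycline at 1 µg/mL for 72 h to express Ribo-STAMP (n = 3) or APOBEC1-only (n = 3). Ribo-STAMP fuses the cytidine deaminase APOBEC1 to the small-subunit protein RPS2, so that C-to-U edits accumulate on ribosome-bound mRNA, and the APOBEC1-only construct carries the deaminase without a ribosomal protein. The breast cancer line MDA-MB-231, which is triple-negative, carried Ribo-STAMP throughout and was induced for 48 h at the same dose, with 100 µM CoCl2 for 48 h as a chemical model of hypoxia (n = 2) or untreated (n = 2). The lines differed in library kit and induction time and were analysed apart, and since the labels do not say that replicates were separate cultures, their spread may be technical. Each entry gave the edited reads and the coverage of a coding position in 1 isoform.

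The Ribo-STAMP HEK293T libraries held 65792, 50908 and 59227 edited reads, against 3498, 3173 and 2971 in the APOBEC1-only libraries. The CoCl2 libraries held 172625 and 155572, against 177069 and 158721 in the untreated ones. The files held no position common to the 6 libraries of HEK293T or to the 4 of MDA-MB-231, so edits shared by every library of a line are not analysed here. The MDA-MB-231 markers CD44, LGALS1, ANXA1 and AXL were listed in all 4 libraries of that line and had no coverage in any HEK293T library, while the neurofilament gene NEFM was listed in 4 of 6 HEK293T libraries and in none of MDA-MB-231. CKB, also taken as an HEK293T marker, went the other way. It had 144, 0 and 212 reads with APOBEC1-only, 35, 63 and 150 with Ribo-STAMP in HEK293T, and 232 to 447 in MDA-MB-231. Among hypoxia genes, BNIP3 had a coverage of 683 and 503 reads with CoCl2, against 227 and 218 untreated, and ADM 145 and 136 against 52 and 69. PGK1 had 4669 and 4432 against 2135 and 2840, and LDHA 6970 and 6680 against 4061 and 5686. SLC2A1 went the other way, with 2355 and 2555 reads with CoCl2 against 4817 and 3510 untreated, and NDRG1 was not raised, with 48 and 43 against 76 and 49.

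Of the 76 members, 62 were listed in HEK293T and 74 in MDA-MB-231. All 62 had an entry in a Ribo-STAMP library and 33 had one in an APOBEC1-only library. All 6 HEK293T libraries listed 16 members, and all 4 MDA-MB-231 libraries listed 67. HNRNPA1L2 and SRSF12 had entries in HEK293T alone. Members took 31.9, 30.4 and 25.2 of every 1000 edited reads in the Ribo-STAMP libraries and 22.9, 23.0 and 24.2 in the APOBEC1-only libraries, groups that did not overlap (exact permutation test, two-sided p = 0.1, the smallest that 3 against 3 allows). They took 16.1 and 16.3 with CoCl2, against 19.2 and 17.9 untreated, also without overlap (exact permutation test, two-sided p = 0.33, the smallest that 2 against 2 allows).

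The edited sites themselves are best seen at single positions, and those below are shown because they had the most edited reads or the highest edited share among the 773 member positions listed in 3 MDA-MB-231 libraries with a coverage of at least 20. Sequences are GENCODE 29 transcripts on GRCh38, read along the mRNA, and the capital marks the edited C.
PRPF38A: gacttacagctgaaCttgtagtcgataaa
SNRNP70: ggcggaggcgctcaCggagtcgcgacaag
SRSF1: atctcgctctcgtaCataagatgattggt
SNRPE: aggagataatattaCtctgctacaaagtg
HNRNPM: gtggtccgagcagaCattcttgaagataa
SF3B2: atgggcaaaattgaCatcgactaccagaa
SF3B1: cgttatgaacttgaCtatatcttataatt
HNRNPA3: ccgactccggccgtCgccgtcgccgccgg
In 7 of these 8 windows the base before the edited C was A, and in HNRNPA3 it was U. The PRPF38A site (chr1:52405685, plus strand, exon 2) had the highest mean edited share, with 6 of 65 and 4 of 53 reads edited in the CoCl2 libraries and 6 of 68 in untreated replicate 2. The SNRNP70 site (chr19:49107928, plus strand, exon 10) had the most edited reads, with 11 of 701 and 9 of 476 in the CoCl2 libraries and 7 of 471 in untreated replicate 1.

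The SRSF1 site (chr17:58005410, minus strand, exon 4) lay 99.9% of the way along the coding sequence, with 5 of 190 reads edited in CoCl2 replicate 1 and 8 of 549 and 6 of 302 in the untreated libraries. The SNRPE site (chr1:203869907, plus strand, exon 5) had 7 of 146 in CoCl2 replicate 1, and 7 of 138 and 2 of 155 untreated. Both edits change an amino acid, as do those of PRPF38A, SNRNP70 and HNRNPA3. Those in HNRNPM (chr19:8466306, plus strand), SF3B2 (chr11:66060647, plus strand) and SF3B1 (chr2:197392315, minus strand) leave the codon's meaning unchanged. The HNRNPA3 site (chr2:177212848, plus strand) rested on 2 of 25 and 1 of 20 reads with CoCl2 and 3 of 231 in untreated replicate 2, so its share was higher at lower coverage. A second SF3B1 site (chr2:197393178, minus strand) and an HNRNPUL1 site (chr19:41294622, plus strand) had mean edited shares of 3.72% and 4.10%.

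Over all member positions in MDA-MB-231, A or U stood before the edited C at 81.1% and 80.2% of positions with CoCl2, and at 79.7% and 80.1% untreated, beside 80.1% and 80.0%, and 81.3% and 80.6%, for all genes. The subfamilies differed around that level. For hnRNPs the share was 74.8% and 72.1% with CoCl2 and 74.8% and 73.7% untreated, and G preceded the C at 17.1% to 19.8% of their positions, beside 11.8% to 12.9% for all genes. PRPF positions had A or U before the C at 86.1% to 89.6%. In all 4 libraries the hnRNP share of A or U was below that of all genes and the PRPF share above it (exact sign-flip test over 4 libraries, two-sided p = 0.125 for each, the smallest possible). The libraries share their transcripts, so base composition is shared between these points.

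Edits that leave the amino acid unchanged made up 45.6% and 47.3% of member positions with CoCl2 and 44.8% and 47.3% untreated, lower than the 49.7% to 51.0% of all genes in 4 of 4 libraries (exact sign-flip test, two-sided p = 0.125, the smallest possible). The libraries share these coding sequences, so they are not independent here and nothing is read from their common direction. The share was 38.3% to 42.3% for SR proteins and 38.8% to 46.2% for SF3 proteins, ranges that overlap, and 54.2% to 60% for U2AF. Stop codons arose at 5.94% to 6.48% of member positions, beside 5.70% to 5.91% of all genes. The 801 member positions found in 3 of the 4 libraries were 14.7% of all member positions, against 11.5% of positions in all genes. That share rose with coverage, with Spearman's rho of 0.75 across 5630 genes and 0.62 across 64 members. Median coverage was 201 reads for those members and 74.6 for those genes, and its part in the difference was not tested.

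In HEK293T the comparison asked how much editing depends on fusing APOBEC1 to the ribosome. All 16 members with at least 10 edited reads in 3 libraries had more edited reads with Ribo-STAMP than with APOBEC1-only, where 99.7% of the 654 genes tested were higher and 0.153% lower (limma, adjusted p under 0.05). Those members passed that filter through the Ribo-STAMP libraries, so nothing is read from their count, and their edited reads are given as a description, with no test. Editing per covering read divides the edited reads of a gene by the coverage of its isoforms; there 12 of 12 members tested were higher with Ribo-STAMP, where 95.7% of 392 genes were (limma, adjusted p under 0.05), with median log2 differences of 4.05 and 3.47.

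SF3b binds the branch-point region of the intron. SF3B1, its largest scaffold protein, had depth-scaled edited reads (edited reads divided by the relative depth of the library) of 253, 195 and 110 in the Ribo-STAMP libraries, against 4.68, 7 and 4.88 in the APOBEC1-only ones. SF3B3 had 246, 129 and 96.3 against 9.35, 10 and 11, and SF3B2 had 92.9, 128 and 154 against 7.48, 6 and 9.77. Among the Ribo-STAMP libraries, replicate 1 was highest for SF3B1 and SF3B3 and lowest for SF3B2. In editing per covering read, the log2 differences of SF3B1, SF3B3 and SF3B2 were 4.03 ± 0.41, 3.43 ± 0.32 and 4.06 ± 0.38 (SE; limma, adjusted p = 4.77e-07, 2.51e-07 and 2.38e-07). SF3A1 and SF3A3, of the SF3a complex that joins SF3b in the U2 particle, had 25.2, 21.2 and 30.5, and 15.6, 25.4 and 23.8, with Ribo-STAMP. Their APOBEC1-only libraries held at most 4.68 scaled reads.

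PRPF8 lies at the catalytic centre of the spliceosome, and SNRNP200 is the helicase that unwinds U4 from U6. PRPF8 had 166, 80.5 and 24.8 scaled edited reads with Ribo-STAMP, against 1.87, 2 and 4.88 with APOBEC1-only. SNRNP200 had 288, 149 and 93.5 against 1.87, 6 and 8.55. Among the Ribo-STAMP libraries, both were highest in replicate 1 and lowest in replicate 3. The mean annotated length of the transcripts read also differed in that order, 4436, 3983 and 3549 bases in Ribo-STAMP replicates 1, 2 and 3, against 3710, 3732 and 3511 with APOBEC1-only; its part in these values was not tested.

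Levels of different genes were compared per kilobase of coding sequence, as edited reads per 100 covering reads per kb. On that scale HNRNPA1, a major nuclear hnRNP that shuttles to the cytoplasm, was highest, with 38.4, 31.6 and 47.8 with Ribo-STAMP against 1.62, 0.60 and 0.67 with APOBEC1-only. PRPF8 followed at 35.4, 35.7 and 19.5 against 1.59, 2.11 and 1.34. HNRNPA2B1, an hnRNP with roles in RNA transport, had 14.4, 40.9 and 33.3 against 0.95, 0.47 and 1.81. The Ribo-STAMP libraries of these 3 genes overlap one another, so their order is not resolved beyond the replicate spread.

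SRSF3, the smallest SR protein, was the lowest of the 12, at 13.7, 8.09 and 11.3 with Ribo-STAMP against 2.41, 1.38 and 2.36 with APOBEC1-only. Its Ribo-STAMP libraries lay below all those of HNRNPA1 and overlapped those of SF3B3 and SF3B1. These levels rest on few edited reads, since SRSF3 did not reach the edited-read filter. HNRNPU, a nuclear scaffold protein, had 15.5, 17.2 and 14.7 against 0.48, 0.09 and 0.82, and HNRNPK, a poly(C)-binding hnRNP, had 23.0, 19.9 and 23.3 against 1.18, 0.42 and 0.32. The medians of the 12 members were 23.2, 18.6 and 21.1 with Ribo-STAMP, beside 17.3, 17.3 and 16.1 for 386 genes with a coding length, and 1.40, 0.93 and 1.25 with APOBEC1-only, beside 1.23, 1.20 and 1.49.

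**Figure D1:**
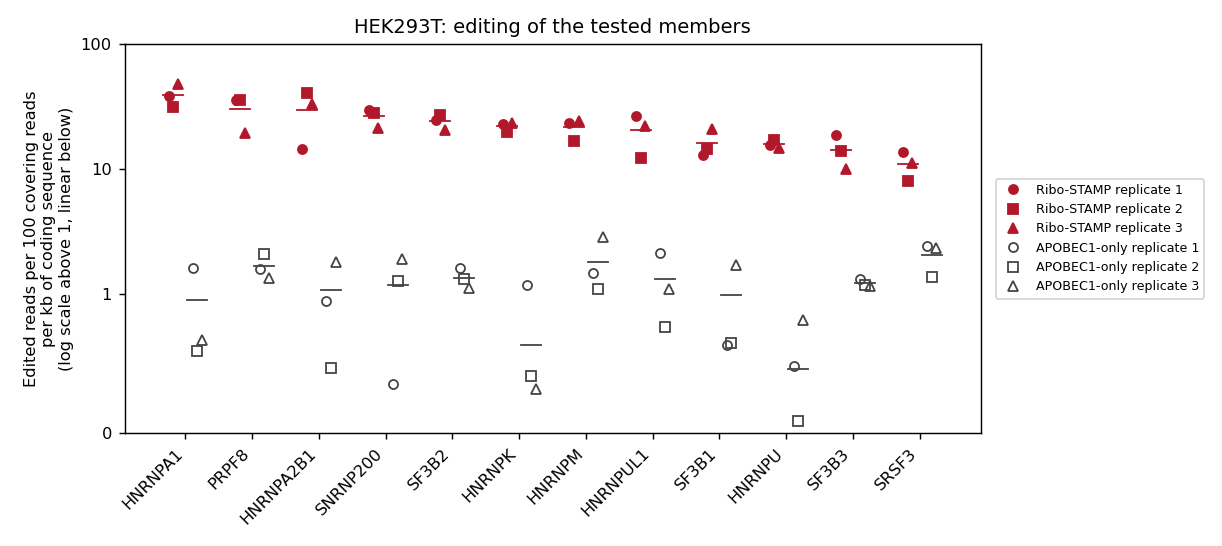
Edited reads per 100 covering reads per kb of coding sequence (y axis, log scale above 1 and linear below) of the 12 members tested in HEK293T, with each Ribo-STAMP library (filled) and each APOBEC1-only library (open) and bars at the means of 3. The Ribo-STAMP libraries lie between 8.09 and 47.8, above all APOBEC1-only libraries, which lie between 0.09 and 2.85.

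When each library was centred on its median gene, 3 members stood above the median gene's difference and 1 below it, where 18.6% and 13.5% of 392 genes did. HNRNPU was 1.94 higher on the log2 scale (limma, adjusted p = 0.00485), HNRNPA1 1.68 higher (adjusted p = 0.0085) and HNRNPK 1.54 higher (adjusted p = 0.00952). SRSF3 was -1.29 (adjusted p = 0.0318), while it was 2.08 ± 0.44 (SE) higher without centring. Only isoforms listed in every library entered, so each held at least 1 edited read in every APOBEC1-only library by construction. That floor is a larger share of the reads where coverage is lower, so nothing is read from the place of SRSF3 below the median. The 3 above the median are hnRNPs, with APOBEC1-only levels of 0.09 to 1.62 per kb, and SRSF3 had APOBEC1-only levels of 1.38 to 2.41. HNRNPA1 and HNRNPA1L2 are near-identical in sequence, and reads could be split between them.

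HNRNPM, a splicing regulator that binds GU-rich RNA, had 56.4, 48.7 and 59.1 scaled edited reads with Ribo-STAMP against 4.68, 4 and 7.33 with APOBEC1-only. HNRNPAB had the lowest mean of the hnRNPs tested for edited reads, 9.55, 26.5 and 19.1 against 0, 0 and 1.22. Both had been kept through their Ribo-STAMP reads, so their separation is not read as a result. No U2AF gene reached a filter in HEK293T, where 2 of the 4 were listed, and no SR gene reached that on edited reads.

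In MDA-MB-231 the comparison asked what changed with CoCl2, in the coverage of edited isoforms, which stands in for mRNA abundance, in edited reads, and in editing per covering read. Coverage rose for 9 Sm and snRNP proteins and fell for 8 hnRNPs, and none of those 9 kept its call once the trend on transcript length was taken out. Of 65 members tested for coverage, 14 rose and 12 fell, where 24.5% of 5673 genes rose and 19.0% fell (limma, adjusted p under 0.05). By subfamily, 9 of 15 snRNP proteins, 2 of 3 U2AF, 2 of 9 SF3 and 1 of 10 SR proteins rose, while 8 of 19 hnRNPs, 3 of 10 SR proteins and 1 of 9 SF3 proteins fell, and 0 of 9 PRPF proteins passed. The median log2 change was 0.65 for snRNP proteins and -0.50 for hnRNPs, beside -0.04 over all genes. The libraries did not overlap for 27 members that were higher and 30 that were lower, where 38.9% and 39.2% of all genes did not. In bulk libraries, less RNA of a gene per cell and fewer cells that express it cannot be told apart.

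**Figure D2:**
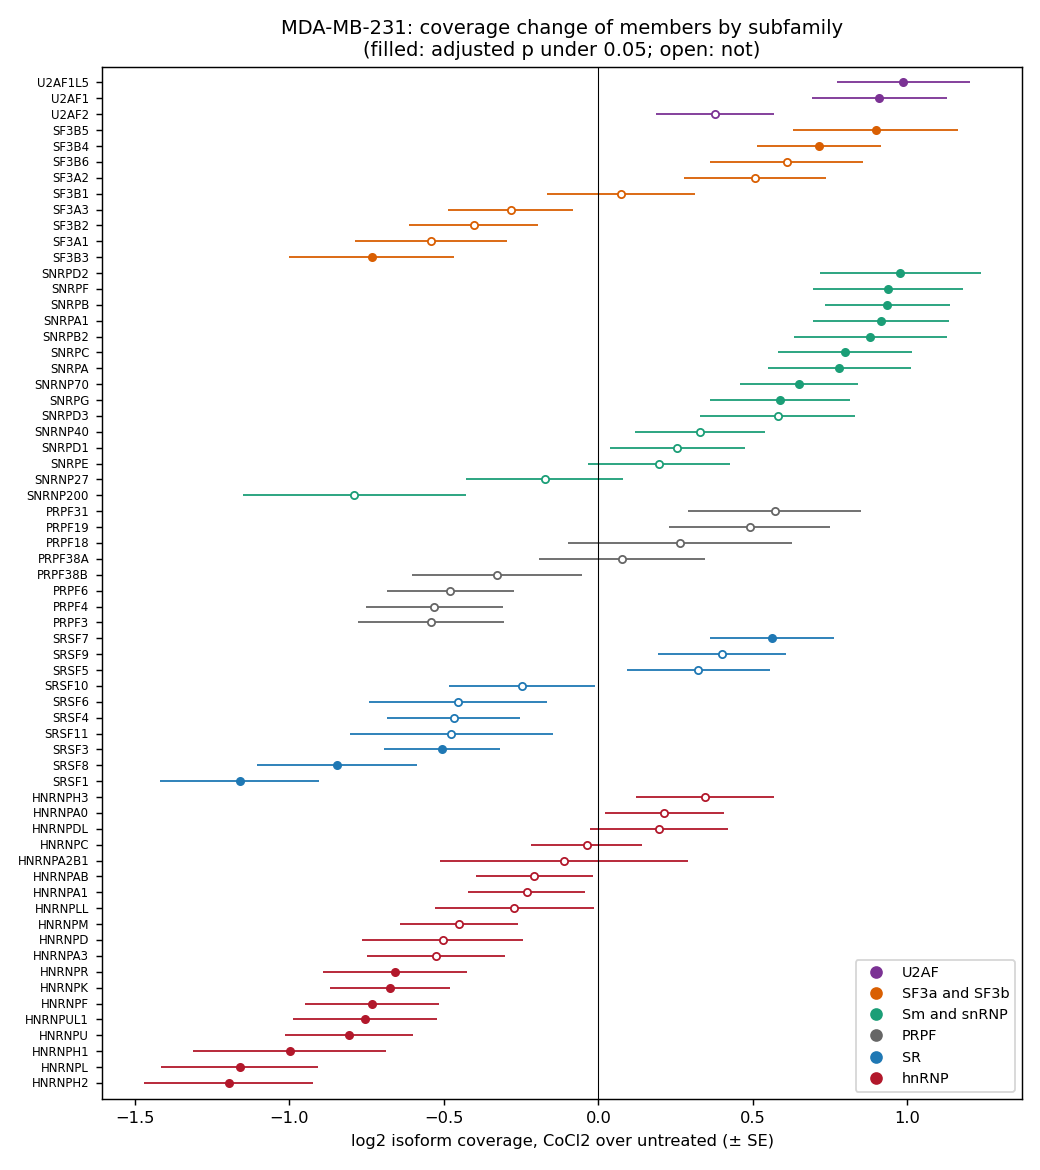
Log2 change of scaled isoform coverage, CoCl2 over untreated (x axis, point ± SE), for 64 of the 65 members tested in MDA-MB-231, by subfamily from top to bottom. Filled points passed the threshold; 13 of 15 snRNP proteins lie right of 0 and 16 of 19 hnRNPs left of it.

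U2AF1, the small U2AF subunit that contacts the AG at the end of the intron, had a scaled coverage of 309 and 275 reads with CoCl2, against 147 and 162 untreated. U2AF1L5, its near-identical copy, had 297 and 324 against 152 and 160. Neither pair overlapped, and reads could be split between the copies, so they are not independent. Their log2 changes were 0.91 ± 0.22 and 0.99 ± 0.21 (SE; limma, adjusted p = 0.00414 and 0.00262). U2AF2, the large subunit that binds the polypyrimidine tract, had 706 and 729 against 524 and 582, a change of 0.38 ± 0.19 that missed the threshold (limma, adjusted p = 0.108).

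SF3B5 and SF3B4, small subunits of SF3b, rose. SF3B5 had 126 and 106 reads with CoCl2 against 51.9 and 73.6 untreated, and SF3B4 had 490 and 449 against 275 and 296. The long-transcript subunit SF3B3 fell to 55.5 and 69.9 with CoCl2, against 120 and 90.6 untreated. The groups did not overlap for any of the 3. SF3B1 had 142 and 132 against 149 and 113, overlapping groups with a log2 change of 0.07 ± 0.24 (95% interval -0.42 to 0.57). SF3B2, SF3A3 and SF3A1, the SF3 members with the most edited reads, had log2 changes of -0.40, -0.28 and -0.54 with adjusted p of 0.114, 0.251 and 0.0762 (limma).

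The Sm ring proteins SNRPB, SNRPD2, SNRPF and SNRPG rose. SNRPB, the SmB protein, had a scaled coverage of 950 and 802 reads with CoCl2 against 399 and 523 untreated. SNRPD2 had 194 and 212 against 77.4 and 136, and SNRPF had 256 and 276 against 110 and 175. SNRPG had 241 and 287 against 151 and 202, the smallest of the 4 changes at 0.59 ± 0.23 (SE; limma, adjusted p = 0.0418). In each the lower CoCl2 library exceeded the higher untreated library. The other Sm proteins did not pass: SNRPD3 changed by 0.58 (adjusted p = 0.0643), SNRPD1 by 0.26 (0.339) and SNRPE by 0.20 (0.489).

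Of the particle-specific proteins, 3 of U1 and 2 of U2 rose. The U1 proteins SNRPA, SNRPC and SNRNP70 had 249 and 188, 373 and 394, and 720 and 728 reads with CoCl2, against 125 and 126, 189 and 257, and 445 and 479 untreated. The U2 proteins SNRPA1 and SNRPB2 had 296 and 261, and 214 and 228, against 137 and 158, and 93.5 and 153. All 5 pairs were without overlap, with log2 changes of 0.65 to 0.92 (limma, adjusted p from 0.00427 to 0.0123). SNRNP40, a U5 protein, had 347 and 348 against 244 and 313 (adjusted p = 0.2), and the U5 helicase SNRNP200 had 25.7 and 28.4 against 69.9 and 32.1 (log2 change -0.79 ± 0.36, adjusted p = 0.0779).

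Among PRPF proteins, PRPF6, PRPF3 and PRPF4, which belong to the tri-snRNP, had changes of -0.48, -0.54 and -0.53 (limma, adjusted p = 0.0623, 0.0679 and 0.057). PRPF18, a second-step factor, changed by 0.26 (adjusted p = 0.561). None of the 9 PRPF proteins tested passed the threshold, and their changes ran from -0.54 to 0.57, with 4 above 0 and 5 below.

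SRSF1, the founding SR protein, fell to 194 and 147 reads with CoCl2, against 516 and 278 untreated. SRSF8 had 53.5 and 61.1 against 107 and 100, and SRSF3 had 565 and 582 against 824 and 806. SRSF7 rose, with 492 and 436 against 318 and 308. The 4 genes had groups without overlap, and the untreated libraries of SRSF1 lay farther apart than those of the others. SRSF9 and SRSF4 did not pass, with changes of 0.40 (limma, adjusted p = 0.117) and -0.47 (adjusted p = 0.0811).

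HNRNPH2 and HNRNPH1, which bind G-rich stretches, had 107 and 120, and 44.2 and 43.7 reads with CoCl2, against 376 and 182, and 127 and 62.3 untreated. HNRNPL, which binds CA repeats, had 75.1 and 77.5 against 210 and 141. The CoCl2 replicates of these 3 lay close together, while untreated replicate 1 stood well above untreated replicate 2, and no groups overlapped. Their log2 changes were -1.20 ± 0.27, -1.0 ± 0.31 and -1.16 ± 0.25 (SE; limma, adjusted p = 0.00338, 0.0159 and 0.00275).

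HNRNPU had 643 and 611 against 1349 and 892, HNRNPK 627 and 731 against 1215 and 963, and HNRNPF, another G-rich binder, 424 and 455 against 923 and 578. HNRNPUL1 had 145 and 150 against 299 and 208, and HNRNPR 184 and 194 against 375 and 238. All 5 fell, with log2 changes of -0.66 to -0.81 (limma, adjusted p from 0.00584 to 0.0298). HNRNPC and HNRNPA1, the hnRNPs with the highest coverage, had 1568 and 1552 against 1514 and 1695, and 1089 and 1182 against 1174 and 1513, with log2 changes of -0.04 (95% interval -0.41 to 0.34) and -0.23 (-0.63 to 0.16). HNRNPM had 712 and 893 against 1129 and 1054 (adjusted p = 0.0591).

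**Figure D3:**
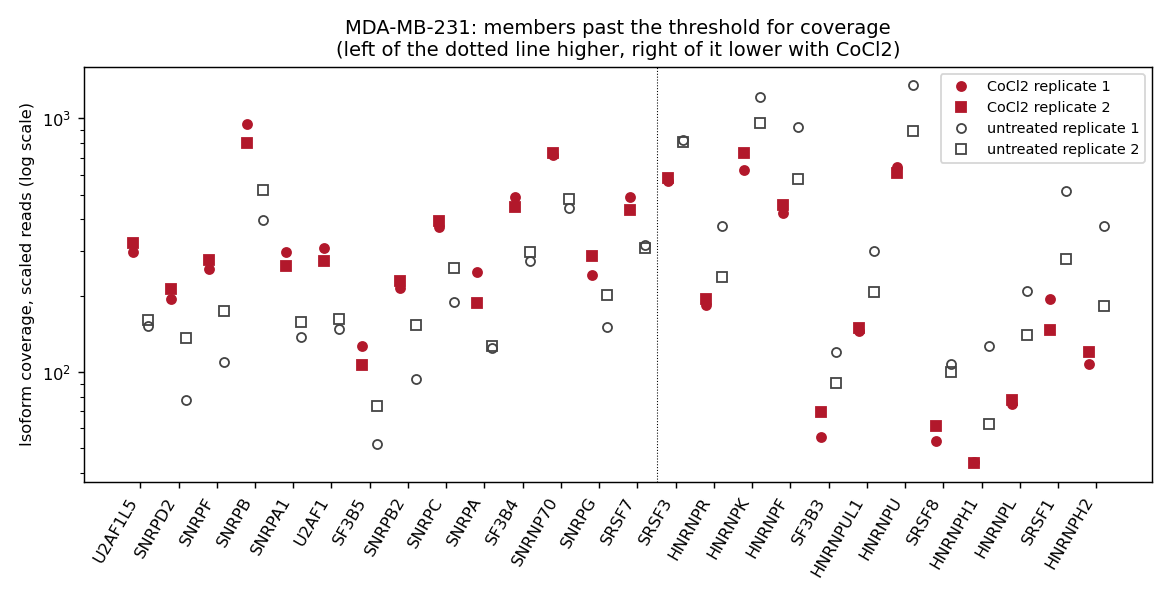
Scaled isoform coverage (reads, log scale) of the 26 members past the threshold, with the CoCl2 libraries (filled, left) beside the untreated libraries (open, right). The CoCl2 points of the 14 genes left of the dotted line lie above their untreated points and those of the 12 genes right of it lie below.

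These changes ran along transcript length. The mean annotated length of the transcripts read was 2313 and 2326 bases with CoCl2, against 2803 and 2575 untreated. Across 5660 genes the log2 coverage change fell by 0.52 per doubling of transcript length, and across 65 members it fell by 0.41, with Spearman rho of -0.64 and -0.65. The genes share the 4 libraries, so rho is given as a description. Among genes of up to 1744 bases, the shortest of 4 length classes, 11 of 20 members rose and 1 fell, where 915 of 1415 genes rose and 14 fell. In the longest class, 0 of 15 members rose and 5 fell, where 77 of 1415 genes rose and 446 fell. snRNP transcripts had a median length of 1609 bases and hnRNP transcripts 2550.

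**Figure D4:**
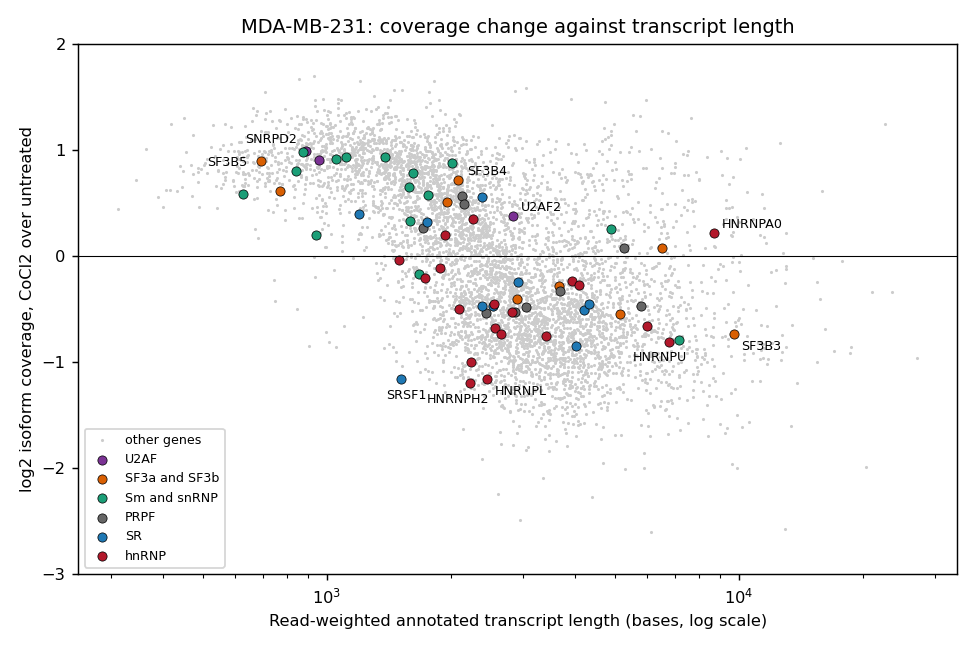
Log2 change of isoform coverage, CoCl2 over untreated (y axis), against the read-weighted annotated transcript length (x axis, bases, log scale) for 65 members by subfamily and 5595 other genes in grey. Short snRNP and U2AF transcripts, save SNRNP27, lie above 0 with most other short genes, while SRSF1, HNRNPH2 and HNRNPL lie between -1.16 and -1.20.

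With the trend on length taken out of each library, 4 members rose and 5 fell relative to genes of like length, where 7.17% of 5660 genes rose and 4.77% fell. HNRNPA0 (0.67), U2AF2 (0.69), SRSF7 (0.64) and SF3B4 (0.57) lay above that trend on the log2 scale, with adjusted p of 0.0206, 0.0279, 0.0329 and 0.0437 (limma). SRSF1 (-1.75), HNRNPH2 (-1.23), HNRNPL (-1.04), HNRNPC (-0.64) and HNRNPAB (-0.63) lay below it, with adjusted p of 0.0182, 0.0393, 0.0262, 0.0218 and 0.0303. The coverage of HNRNPC itself had hardly changed, as given above. Before the trend was taken out, HNRNPA0, U2AF2 and HNRNPAB had not passed either, and the highest log2 change of an hnRNP was 0.35. The annotated transcript of HNRNPA0 is 8726 bases long. Of the 14 that rose before, SRSF7 and SF3B4 kept their call, and of the 12 that fell, SRSF1, HNRNPH2 and HNRNPL did. HNRNPH1 no longer passed (adjusted p = 0.0785), with its log2 change at -1.02. None of the 15 snRNP proteins passed then, their median change being 0.08. SNRPG, SNRPC and SF3B5 turned negative, at -0.46, -0.15 and -0.13.

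Edited reads per gene changed in the same comparison for 3 of 66 members tested: 2 rose and 1 fell, where 12.1% of 4097 genes rose and 2.90% fell (limma, adjusted p under 0.05). Libraries did not overlap for 31 members that were higher and 19 that were lower, where 41.3% and 26.5% of all genes did not. SNRPB2 had 52.4 and 43.3 depth-scaled edited reads with CoCl2 against 13.2 and 20 untreated, and SNRPA1 61.6 and 50.9 against 22.6 and 20. HNRNPU had 84.2 and 76.9 against 232 and 139. The 3 genes had no overlap between groups. Their log2 changes were 1.49 ± 0.38, 1.36 ± 0.35 and -1.15 ± 0.31 (SE; limma, adjusted p = 0.0336, 0.0336 and 0.0357). With the length trend taken out, 2 members rose and 1 fell, where 5.16% and 1.17% of 4089 genes did. They were SNRPB2 (1.32, adjusted p = 0.0444), SNRPD1 (1.52, adjusted p = 0.0482) and SRSF1 (-1.59, adjusted p = 0.0254), while SNRPA1 (0.44, adjusted p = 0.461) and HNRNPU (-0.63, adjusted p = 0.165) did not. Without either CoCl2 replicate, 0 members passed in either direction, for edited reads or for coverage. The calls thus depended on the library left out. Each such fit leaves 1 library in a group, so members passing without an untreated replicate are not counted here.

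SNRPB2 and SNRPA1 encode the U2 snRNP proteins B″ and A′, which bind the U2 RNA together. Their coverage rose by 0.88 and 0.92 on the log2 scale beside the changes of 1.49 and 1.36 in edited reads. For SNRPB, SNRPA and U2AF1L5, log2 changes in edited reads of 1.07, 1.32 and 1.14 lay just outside the threshold (limma, adjusted p = 0.0501, 0.0508 and 0.0515), and SRSF3, at -1.25, did too (adjusted p = 0.0559). Over the 15 snRNP proteins the median change in edited reads was 0.97, and over the 19 hnRNPs -0.48, beside 0.19 over all genes. With the length trend taken out, these medians were 0.12, -0.39 and 0.17. SNRPB was then at 0.17 and U2AF1L5 at 0.14 (limma, adjusted p = 0.785 and 0.848).

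Editing per covering read was not past the threshold for any of 65 members or any of 5673 genes (limma); at unadjusted p under 0.05 there were 5 members and 484 genes. The median log2 change was 0.13 over members and 0.20 over all genes, and on a scale centred on the median gene it was -0.07 and 0.00. The 5 members were named after their values were seen. PRPF38B (1.03 ± 0.36), HNRNPDL (0.98 ± 0.30), SRSF5 (0.90 ± 0.31) and SNRPD1 (0.81 ± 0.24) had positive log2 changes, SRSF3 a negative one (-0.76 ± 0.27; SE), and the adjusted p was 0.519 for each. HNRNPDL had 19.2 and 14.2 edited reads per 100 covering reads per kb with CoCl2 against 7.14 and 7.46 untreated, and SRSF3 6.66 and 4.19 against 10.9 and 7.62. Both had groups without overlap, as had 23 members that were higher and 4 that were lower, where 30.1% and 9.64% of all genes were.

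Per kilobase, member levels in MDA-MB-231 spanned a wide range. SF3B5 was highest, with 85.1 and 55.7 edited reads per 100 covering reads per kb with CoCl2 against 84.6 and 64.6 untreated, followed by SNRPD2 with 55.3 and 43.7 against 58.6 and 43.2. HNRNPC was lowest, with 3.55 and 3.57 against 3.37 and 3.89, and HNRNPA1 next, with 3.98 and 5.32 against 4.80 and 3.72. HNRNPC and HNRNPA1 overlap, and SF3B5 lay above SNRPD2 in both libraries of each treatment. HNRNPC lay at percentile 1.31 and SF3B5 at percentile 99.1 of the 5630 genes with a coding length, whose median was 17.6.

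The level ran against coverage. Across 64 members Spearman's rho between level and coverage was -0.68, and across 5630 genes -0.22, with coverage also the divisor of the level. HNRNPC and HNRNPA1 had mean coverages of 1587 and 1247 reads, and 24.7% and 21.5% of their positions were listed in 3 libraries, the most a position can have in these data. For SF3B5, with a coverage of 88.4, that share was 22.6%. The part played by the positions of all 4 libraries, which are not analysed here, was not tested. In HEK293T, where HNRNPA1 was highest of the 12 members, rho across members was -0.35 and across 386 genes 0.16.

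**Figure D5:**
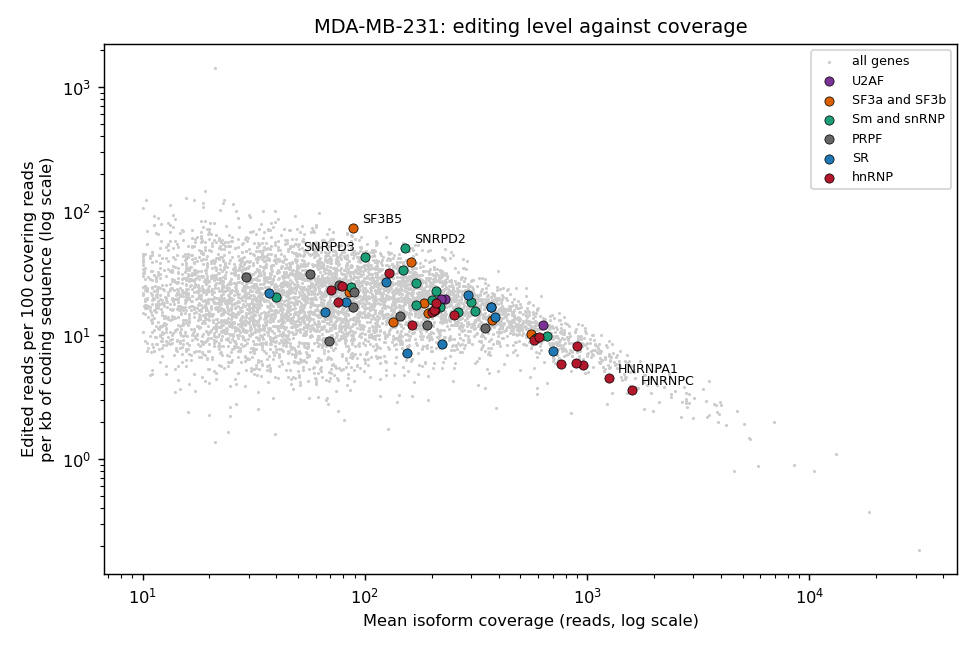
Edited reads per 100 covering reads per kb of coding sequence (y axis, log scale) against mean isoform coverage (x axis, reads, log scale) in MDA-MB-231, for 64 members by subfamily and 5630 genes in grey. The level falls with coverage at the right, where HNRNPC (3.59) and HNRNPA1 (4.45) lie, and SF3B5 (72.5) is at the top.

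Isoforms of a member could be compared in 27 members, over coding positions that the annotation puts in both, or, for HNRNPA3 and HNRNPF, whose isoforms are not all in GENCODE 29 as coding, over all listed positions. None of the 27 and none of the 861 genes tested differed between the second and the most covered isoform, averaged over both treatments (limma, adjusted p under 0.05); at unadjusted p under 0.05 there were 2 members and 135 genes. HNRNPA1-202, which retains the exon that lengthens the glycine-rich tail, had 5.13 and 7.89 edited reads per 100 covering reads with CoCl2 and 7.27 and 5.34 untreated, while HNRNPA1-203 had 3.67 and 4.77 with CoCl2 and 4.32 and 3.26 untreated. The second isoform was higher in 4 of 4 libraries, by 0.77 ± 0.30 on the log2 scale (SE; limma, adjusted p = 0.272), on 4 to 8 edited reads per library. SNRNP27 differed by 0.86 ± 0.32 (adjusted p = 0.266) on 1 or 2 edited reads of its second isoform per library. Both were named after their values were seen. HNRNPA2B1 had the most isoforms listed in MDA-MB-231, 9, against 2 in HEK293T, where HNRNPC had 9.

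Among other genes of the pathway, 40 of 47 spliceosome helicases and PRP19-complex proteins were tested for coverage, of which 9 rose and 11 fell, where 24.5% and 19.0% of all genes did. EFTUD2, the GTPase that partners PRPF8, fell by 1.26 ± 0.25 (SE; limma, adjusted p = 0.00209), and the U2AF partner PUF60 rose by 0.92 ± 0.18 (adjusted p = 0.00209). Of 18 tested among 23 hnRNP-like and other RNA-binding proteins, 1 rose and 9 fell. PTBP1, a polypyrimidine-tract repressor of exons, fell by 1.20 ± 0.25 (adjusted p = 0.00226) and ELAVL1 by 0.97 ± 0.22 (adjusted p = 0.00328). Of 15 tested among 20 SR-related and exon-junction proteins, 3 rose and 4 fell, with EIF4A3, the exon-junction helicase, at 0.75 ± 0.20 (adjusted p = 0.00642). With the length trend taken out, 3 rose and 3 fell in the first list, 1 and 1 in the second, and 2 and 1 in the third. EFTUD2 (-0.78, adjusted p = 0.0497) and PUF60 (0.76, adjusted p = 0.0141) then passed the threshold (limma). PTBP1 (-0.75, adjusted p = 0.0642), ELAVL1 (-0.51, adjusted p = 0.0752) and EIF4A3 (0.24, adjusted p = 0.269) did not.

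In edited reads with CoCl2, 3 of 33 helicase and PRP19-complex genes rose and 2 fell, 0 of 17 hnRNP-like genes rose and 3 fell, and 1 of 15 SR-related genes rose and 0 fell, where 12.1% of all genes rose and 2.90% fell. With the length trend taken out these counts were 2 and 2, 1 and 1, and 1 and 0. PTBP1 fell by 1.5 ± 0.39 (SE; limma, adjusted p = 0.0336) and EFTUD2 by 1.48 ± 0.36 (adjusted p = 0.032). With the length trend taken out PTBP1 was at -1.02 (adjusted p = 0.0536) and EFTUD2 at -0.97 (adjusted p = 0.049). In HEK293T, 8, 11 and 2 genes of the 3 lists reached the edited-read filter, through their Ribo-STAMP reads, so nothing is read from their direction.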

How the data were processed

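Members and gene lists were chosen with earlier results of these data known. The authors deposited, for each library, a list of coding positions with a gene, an isoform, the number of edited reads and the coverage of that position; the reads were counted by the authors, and the values carry no normalization. The sources used here do not give the aligner or the edit caller; the submitters' processing notes name hg19 and hg38. MDA-MB-231 positions matched GENCODE 29 on GRCh38, and HEK293T positions did not, so no HEK293T coordinate is given. Of 10631 genes, 10580 had a symbol.

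Edited reads were summed per gene and divided by relative depth, the median ratio of isoform coverage. Coverage was the sum of isoform medians, with library factors from trimmed M-values. Since each value pairs 2 numbers in 1 cell, log2 values were tested, not a count model. A gene was kept with 10 edited reads in 3 HEK293T or 2 MDA-MB-231 libraries, or, for coverage and editing per read, with a mean coverage of 10. Log2 values (pseudocount 1, or 0.5 added to edited and unedited reads) were fitted with limma 3.58.1 in R 4.3.3 with a mean-variance trend and Benjamini-Hochberg adjustment over all genes, threshold 0.05, and the step was tested on simulated data. Editing per covering read was the log2 ratio of edited to unedited reads over isoforms listed in every library. Named members were the 4 highest and 1 lowest of each subfamily by edited reads, and those past a threshold, up to 10 per direction, and others named were chosen after their values were seen; 1 member that the rule names is not reported here. Alternatives changed the filter, scaling, pseudocount, model and positions, took out the length trend, added a replicate block or left out a library.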

Additional observations from a re-analysis of the deposited data

How the results depend on the processing

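In HEK293T, the members higher in edited reads numbered 16, 35 without the filter and 0 with scaling by edited reads. With that scaling 25 of 654 genes were higher and 1 lower, so nothing is read from the 0 members. HNRNPC, HNRNPM, HNRNPUL1, SF3B2 and SF3B3 then turned to -0.031, -0.60, -1.12, -0.028 and -0.19. Those higher in editing per read numbered 12, and 3, with 1 lower, when centred (SRSF3 -1.29). In MDA-MB-231 edited reads, 2 members rose and 1 fell. The numbers were 0 and 0 without the filter and with positions of coverage 20, and 5 and 2 with limma-voom. They were 0 and 3 with scaling by edited reads, where 212 and 200 of 4097 genes rose and fell. With positions under 50% edited 4 rose and 1 fell, where 533 and 142 of 4063 genes did. Shares over all genes are not given here without the filter, with limma-voom or with the replicate block, so nothing is read from those member counts. For coverage, 14 rose and 12 fell, and 4 and 5 with length taken out (SNRPG -0.46, SNRPC -0.15, SF3B5 -0.13). The cause was not tested, save that scaling by edited reads and centring remove a shift common to all genes by construction.

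Leaving out 1 library gave 16 to 19 and 12 to 17 members higher in HEK293T, for edited reads and for editing per read. Shares over all genes are not given for these fits, so nothing is read from those counts. For the edited reads of MDA-MB-231 it gave 0 to 11 rising and 0 to 13 falling, and for coverage 0 to 25 rising and 0 to 23 falling: 0 without either CoCl2 replicate, and the highest without untreated replicate 2. A lone library was assumed to vary like the other group. In MDA-MB-231, editing per read and isoform differences had 0 members past the threshold under every alternative run.

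The labels do not say whether replicate numbers pair the libraries. Deviations of same-numbered libraries correlated at 0.04 to 0.33 in HEK293T, highest for replicate 3 (0.33 in edited reads, 0.22 in editing per read). Replicate 3 against another number gave -0.25 to -0.08. Replicates 1 and 2 against each other gave 0.18 and 0.15 in edited reads, above their same-numbered values of 0.087 and 0.12. In editing per read they gave 0.052 and 0.07, beside same-numbered values of 0.13 and 0.036. In MDA-MB-231 same-numbered libraries correlated at -0.0067 to 0.023. With 2 libraries per group, differently numbered pairs there hold the same values with the sign turned, so they cannot show pairing. The replicate block gave 6 members rising and 4 falling in MDA-MB-231 edited reads, and changed no other count of members by over 1.5 times. For coverage it ended the calls of SRSF3, SRSF7 and SNRPG (limma, adjusted p = 0.081, 0.0607 and 0.0597); for the isoform contrast, made within libraries, no block applies. Depth limits single members: in the APOBEC1-only libraries members had 72 to 80 edited reads in all.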
